A study of Mus musculus with 46 samples.

Results

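The cytosolic ribosomal protein genes encode the proteins of the ribosome that translates cytoplasmic mRNA. They were chosen by gene symbol alone, as every probe whose symbol starts with Rpl or Rps followed by a digit, or is Rplp0, Rplp1, Rplp2 or Rpsa, with the ribosomal S6 kinases left out. This gave 66 genes on 84 probes, of 16593 genes on 25697 probes. Of the 66 genes, 39 belong to the large subunit, 24 to the small subunit, and 3 carry such a symbol without being subunit proteins (Rps19bp1, Rps23rg1 and Rpl7l1). A probe was tested where its signal lay above background on at least 1 array, and 59 of the 66 genes had such a probe (33 of 39 large subunit genes, 23 of 24 small subunit genes and all 3 others), of 10139 genes tested in all. Of the 59 genes, 53 were above background on all 46 arrays and 6 on some of them. Rpl14, Rpl17, Rpl3l, Rpl39l, Rpl6, Rplp2 and Rps23 had no probe above background on any array and are not described further.

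Liver RNA was measured in 46 male C57BL6/J mice at 8 months of age, on 1 Illumina Mouse Ref8 v2.0 array per mouse. All mice had been on their diet for 6 months, from 2 months of age. The groups were 11 mice under dietary restriction (DR, a restriction by 40% in the labels, a figure on which the methods are not uniform), 12 mice fed 14 ppm of microencapsulated rapamycin (Rapa), 12 mice given both (Rapa+DR) and 11 mice fed ad libitum (AL). Whole liver was extracted, so fewer cells of a type and less RNA per cell cannot be told apart. Values are log2 signals at a spread common to all arrays, a change is a difference of group means on that scale, and the 46 arrays, 1 per mouse, set the precision. Signals were not corrected for background, so the change of a dim probe is understated. Many ribosomal protein genes have processed pseudogene copies of near-identical sequence, and a probe can bind transcripts of both.

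A ribosome is built from a small subunit, which holds the mRNA and reads its codons, and a large subunit, which joins amino acids and releases the growing chain through a tunnel. Most mRNAs of ribosomal proteins begin with a run of pyrimidines, the 5′ terminal oligopyrimidine (TOP) motif, and their translation depends on mTOR complex 1, the kinase complex that rapamycin inhibits and that nutrients activate. The small subunit protein S6, the product of Rps6, is phosphorylated by the S6 kinases downstream of mTOR, and its phosphorylation is a common readout of mTOR signaling. The arrays measured RNA level and neither translation nor protein.

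Start regions from RefSeq (mouse build GRCm38.p6) were matched to 57 of the 66 genes by symbol. The windows below hold the 15 bases before the annotated start and the first 15 bases of the transcript, 5′ to 3′. Capitals mark a C and T run of at least 8 bases with any of its bases within 5 bases of the annotated start. They are shown for 4 genes of the small subunit and 2 of the large subunit that the results turn on. Rps7 (chr12:28635939-28635968, minus strand), Rps6 (chr4:86857353-86857382, minus), Rpl24 (chr16:55966260-55966289, plus), Rps3a1 (chr3:86142654-86142683, minus) and Rps27 (chr3:90213634-90213663, minus) include the genes with the largest increases, and Rpl28 (chr7:4792950-4792979, plus) is the subunit gene called lower.
Rps7: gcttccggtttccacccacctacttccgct
Rps6: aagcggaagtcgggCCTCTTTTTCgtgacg
Rpl24: agaaagctgttgctaggaaacagactgggc
Rps3a1: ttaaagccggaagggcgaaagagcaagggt
Rps27: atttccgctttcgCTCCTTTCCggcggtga
Rpl28: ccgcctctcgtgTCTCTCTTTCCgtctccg
The windows of Rps6, Rps27 and Rpl28 hold a run of 10, 9 and 11 bases, and those of Rps7, Rpl24 and Rps3a1 hold none of 8 bases. Over the 57 genes 19 (33.3%) had such a run, against 9.7% of the 27025 genes with a window. The letters CCGGAAG or their reverse complement CTTCCGG, a core that ETS factors bind, were found on either strand in the 250 bases before to 50 bases after the start of 21 of the 57 genes (36.8%), against 9.1% of all genes. A pyrimidine run was found in 2 of the 14 matched genes called higher in any of the 3 comparisons with AL and in 15 of the 37 matched genes that were tested and not called higher. A match describes the letters of these windows only, and the annotated start need not be the start used in liver.

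A set of 14 arrays that the labels do not name stood apart by a gap in a few probes, and differed less sharply in more genes. It held 3 of 11 DR, 5 of 12 Rapa, 3 of 12 Rapa+DR and 3 of 11 AL arrays. Its mean array SD was larger than that of the other arrays in each group. The values were 1.462 against 1.345 in DR, 1.359 against 1.216 in Rapa, 1.55 against 1.364 in Rapa+DR and 1.359 against 1.255 in AL. The set was found among probes of other genes, where 12 of 6511 probes above background on all arrays had a gap between exactly these 14 arrays and the other 32. Rpl7a, a large subunit gene, had the widest gap. Its signal lay between 11.13 and 12.02 in the 14 arrays and between 8.29 and 10.49 in the 32, so that the 2 sets did not overlap in any group. Rpl24 was higher by 0.89 in the set on average over the groups. Between the sets 2 of the 59 genes were higher and 11 lower by over 0.5 in log2, 22% of the genes. Of all 10139 tested genes 263 were higher and 169 lower, 4.26%. The 2 shares compare genes of unlike signal, since 53 of the 59 but 4947 of all tested genes were above background on all arrays. The counts of called subunit genes and of all 59 genes below are therefore also given with the set as a block and within the 32 other arrays.

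Under DR, 12 of the 59 genes (20.3%) were called higher than in AL and 1 was called lower. The call required that limma, fitted to all tested probes, gave an adjusted p (Benjamini-Hochberg) below 0.05 and that the group medians lay more than 15% apart. By the same rule 10.7% of all tested genes were called higher in DR and 7.41% lower. The change was positive in 47 of the 59 genes, with a median of 0.21, against a median of -0.004 over all tested genes. Without the array DR 4 the count called higher was 7, and it lay between 8 and 15 without any 1 other array. With the set of 14 arrays as a block it was 16 (12% of all genes), and within the 32 other arrays 18 (9.6% of all genes). A fit of genes above background on every array called 13 higher and 1 lower of 53 ribosomal protein genes in DR. Of all 4947 genes in that fit 19.1% were higher and 14.2% lower, so the excess over other genes was smaller there.

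In Rapa fewer of these genes were called. Against AL, 6 of 59 (10.2%) were called higher and 1 lower, near the 8.26% and 6.4% of all tested genes, and the median change was 0.04, with 35 of 59 positive. With the set of 14 arrays as a block 9 were called higher (8.97% of all genes), and within the 32 other arrays 12 (5.7% of all genes), where the median was 0.20. The count was also 9 without the array Rapa 4 and 4 without AL 3, and the 1 gene called lower is described with Rpl28. In Rapa+DR 11 genes (18.6%) were called higher and 1 lower than in AL, with a median of 0.15 and 38 of 59 positive. That share higher was close to the 17.1% of all tested genes, while 11.3% of all genes were called lower. With the block 15 were called higher (18%), within the 32 other arrays 20 (15.5%), and without AL 3 there were 8 higher and 3 lower. Within the set of 14 arrays, with 3 AL arrays, 0, 0 and 1 of the 59 genes were called higher in DR, Rapa and Rapa+DR, against 1.99%, 3.32% and 11.7% of all genes, and the median change was 0.12 in DR and turned negative in Rapa (-0.15) and Rapa+DR (-0.11). In the fit of genes above background on every array 7 and 13 of 53 were higher in Rapa and Rapa+DR, and 1 and 2 lower. Of the 4947 genes there 14.3% and 25.9% were higher, and 13.3% and 20.5% lower. The 3 comparisons share the AL mice.

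**Figure D1:**
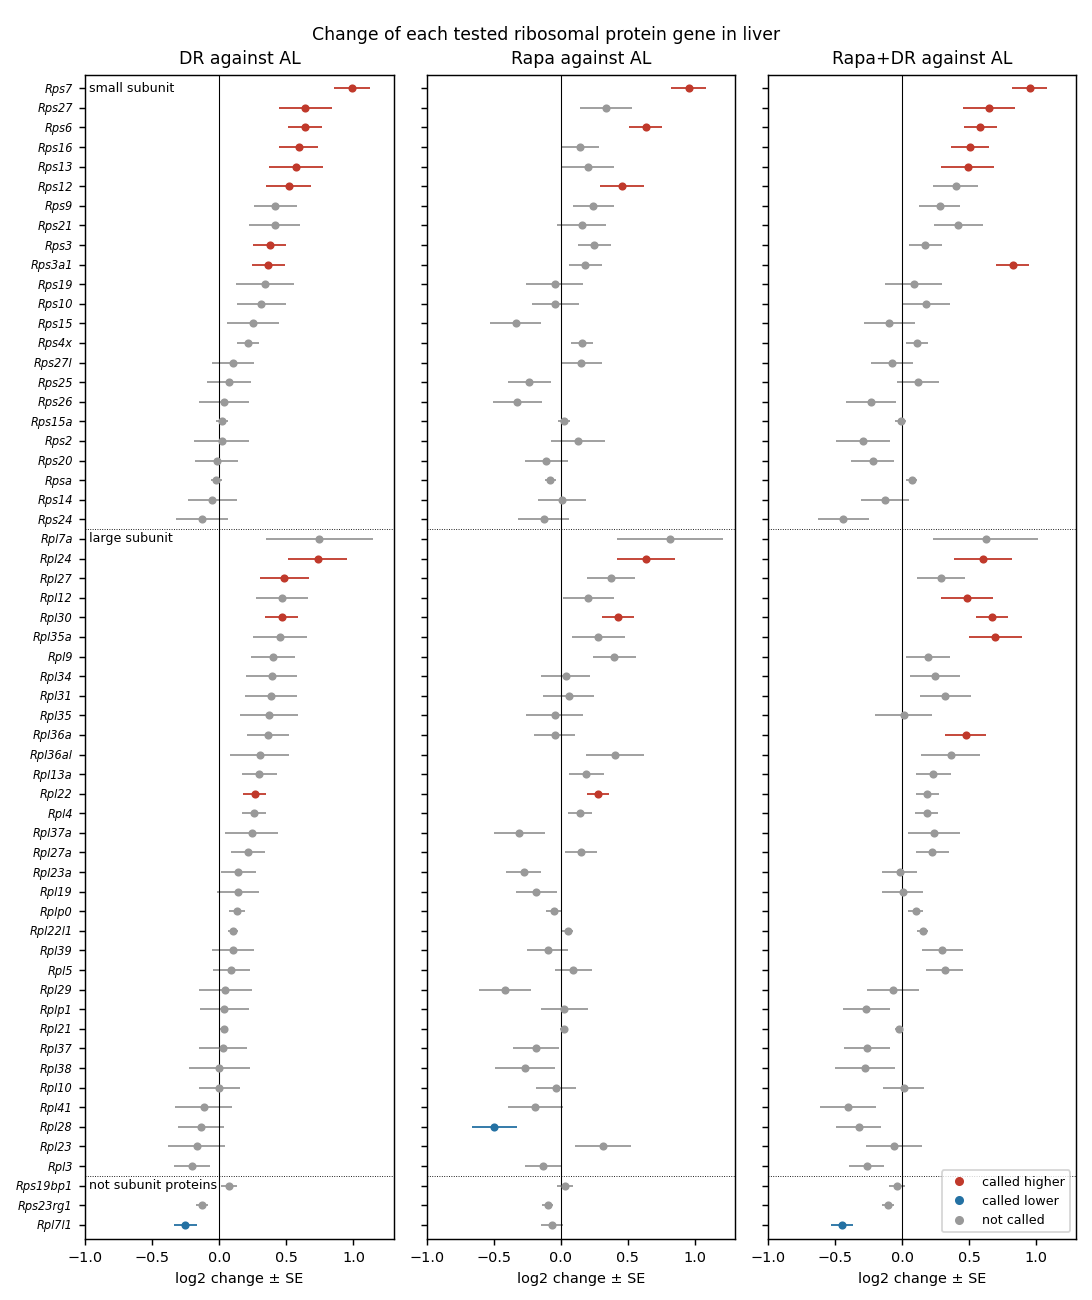
Each point is the log2 change of 1 ribosomal protein gene against AL with its standard error, in DR (left), Rapa (middle) and Rapa+DR (right), for the 59 tested genes in the same order in each panel. Red marks genes called higher (12, 6 and 11 genes), blue genes called lower (1 in each panel) and grey genes not called, and in DR most points lie right of 0.

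The scaling of the arrays bears on these counts. The deposited values divide each array by its SD, and the mean SD of the log2 signals was 1.38 in DR, 1.28 in Rapa, 1.41 in Rapa+DR and 1.28 in AL. Where arrays were centred and not divided by their SD, 26, 2 and 33 of the 59 genes were called higher in DR, Rapa and Rapa+DR (12.4%, 5.18% and 21.5% of all genes), with medians of 0.46, 0.02 and 0.49 and no gene called lower. Under quantile normalization the counts were 18, 6 and 21 (9.07%, 8.45% and 13.9% of all genes). The split over all genes also moved, with 10.6% lower in DR and 16% in Rapa+DR under quantile normalization and 3.53% and 6.94% without division by the SD. The sign of the median change was positive in all 3 comparisons under each of these scalings.

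**Figure D2:**
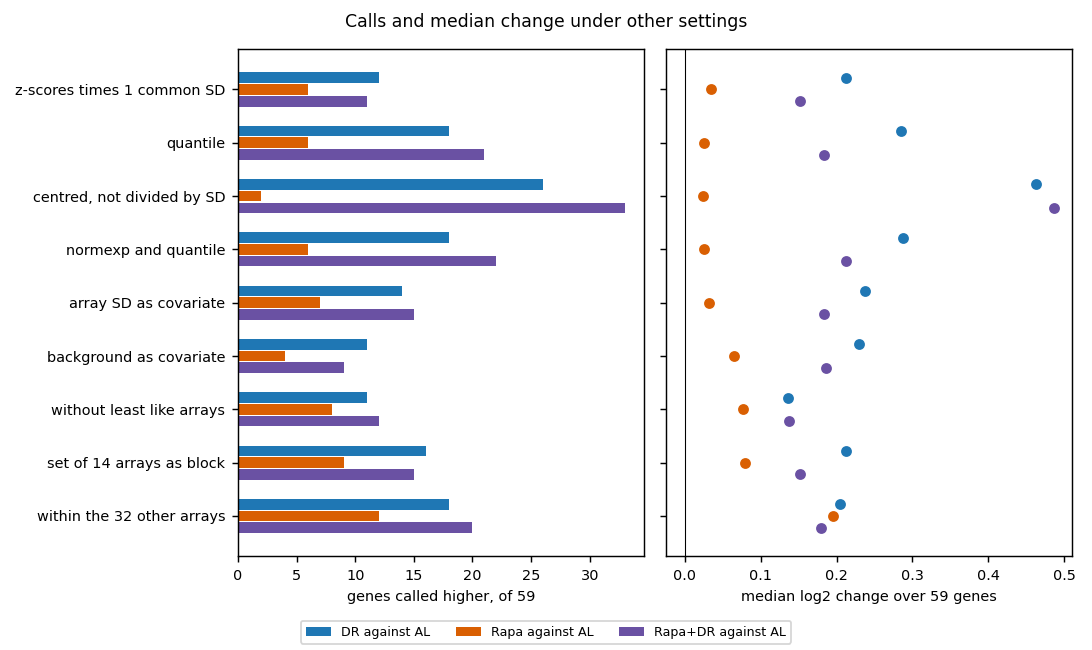
Bars give the number of the 59 genes called higher than in AL in DR, Rapa and Rapa+DR (left), and points give the median log2 change over the 59 genes (right), one row for each way of scaling or selecting the arrays. The counts in DR and Rapa+DR were largest, 26 and 33, without division by the array SD, while Rapa lay between 2 and 12 over the 9 settings plotted, which leave out the fit within the 14 arrays (0 in Rapa).

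In DR a larger share of small than of large subunit genes was called higher, a description since genes are not replicates. Of 23 small subunit genes DR had 8 called higher (34.8%), Rapa 3 (13%) and Rapa+DR 6 (26.1%). Of 33 large subunit genes 4 (12.1%), 3 (9.09%) and 5 (15.2%) were called higher, near the 10.7%, 8.26% and 17.1% of all tested genes. With the set of 14 arrays as a block the counts were 9, 3 and 7 for the small and 7, 6 and 8 for the large subunit, and within the 32 other arrays 9, 6 and 9 for the small and 9, 6 and 11 for the large subunit. The median changes in DR, Rapa and Rapa+DR were 0.31, 0.14 and 0.12 for the small subunit and 0.21, 0.04 and 0.19 for the large subunit. Averaged over genes in each mouse, the small minus large subunit difference was 0.03 ± 0.07 in DR, 0.01 ± 0.09 in Rapa, -0.004 ± 0.06 in Rapa+DR and -0.04 ± 0.06 in AL (SD over 11, 12, 12 and 11 mice), so group ranges overlapped.

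Rps7, a small subunit protein that takes part in processing of the pre-rRNA, had the largest increase in all 3 comparisons. Its log2 signal (lowest, median and highest mouse) was 11.65, 11.92 and 12.49 in DR, 11.15, 12.00 and 12.88 in Rapa, 11.49, 11.98 and 12.51 in Rapa+DR and 10.19, 10.99 and 11.53 in AL. DR mice did not overlap with AL mice, and in Rapa and Rapa+DR every mouse lay above the AL median. The change was 0.99 ± 0.13 in DR (SE, adjusted p = 3.43e-07), 0.96 ± 0.13 in Rapa (adjusted p = 3.4e-06) and 0.95 ± 0.13 in Rapa+DR (adjusted p = 1.57e-07), which are folds of 1.98, 1.94 and 1.94. The call held without any 1 of the 46 arrays and under all 17 other settings outside the set of 14 arrays.

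Rps6, which encodes the S6 protein, followed the same pattern at a smaller size. The lowest, median and highest mouse had 11.04, 11.34 and 11.78 in DR, 10.88, 11.50 and 12.13 in Rapa, 10.94, 11.43 and 11.69 in Rapa+DR and 9.99, 10.87 and 11.32 in AL. The groups overlapped, yet each mouse of the 3 treated groups was above the AL median. Rps6 was higher by 0.64 ± 0.13 in DR (adjusted p = 0.000162), 0.63 ± 0.12 in Rapa (adjusted p = 0.00026) and 0.58 ± 0.12 in Rapa+DR (adjusted p = 0.000171), and these calls also held without any 1 array and under the 17 settings.

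For both genes the effect of rapamycin differed between DR mice and AL mice. The interaction subtracts the change that rapamycin made in ad libitum fed mice (Rapa against AL) from the one it made under restriction (Rapa+DR against DR). Rapa+DR differed from DR by -0.04 in Rps7 (95% interval -0.30 to 0.23) and by -0.06 in Rps6 (-0.30 to 0.19), against the increases of 0.96 and 0.63 from rapamycin in AL-fed mice. The interaction was -0.99 ± 0.19 for Rps7 (adjusted p = 0.00222) and -0.69 ± 0.17 for Rps6 (adjusted p = 0.0245), the 2 genes of 59 called (3.39%), both negative. Of all tested genes 1.24% had a positive and 1.26% a negative interaction, and over the 59 genes the median was -0.14. Without division by the array SD neither was called (adjusted p = 0.137 and 0.103). With the set of 14 arrays as a block 6 genes were called negative and 1 positive, where 2.9% of all genes were negative and 4.48% positive, and within the 32 other arrays 5 and 0 (1.37% and 2.86% of all genes). With the block these included Rpl22, Rpl24, Rpl7a and Rpl9 with negative values between -0.31 and -0.68, and Rpsa with 0.18. The Rpsa probe was above background on 5 arrays (1 DR, 0 Rapa, 4 Rapa+DR and 0 AL). Rpsa was tested through restricted mice alone, so its value near background does not establish an interaction.

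Other small subunit genes rose in DR, Rapa+DR or both. Rps27, a zinc-finger protein, had 11.82, 12.15 and 12.69 in DR, 10.50, 12.16 and 12.85 in Rapa, 11.56, 12.33 and 12.48 in Rapa+DR and 10.77, 11.62 and 12.12 in AL (lowest, median and highest). Its change was 0.64 ± 0.20 in DR (adjusted p = 0.0152) and 0.65 ± 0.19 in Rapa+DR (adjusted p = 0.00662), and 0.34 ± 0.19 in Rapa, where mice spread over more than 2 units and it was not called (adjusted p = 0.247). Rps16, whose tail reaches toward the decoding site, had 11.42, 11.64 and 12.30 in DR, 9.88, 11.41 and 11.94 in Rapa, 11.25, 11.65 and 11.92 in Rapa+DR and 10.31, 11.22 and 11.45 in AL. Every DR and Rapa+DR mouse was above the AL median, though the highest AL mouse reached into both groups. Rps16 was higher by 0.59 ± 0.15 in DR (adjusted p = 0.00236) and 0.50 ± 0.14 in Rapa+DR (adjusted p = 0.00427), and by 0.14 ± 0.14 in Rapa (adjusted p = 0.55). The calls of Rps27 and Rps16 against AL held without any 1 array and under the 17 settings.

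Rps3a1, which lies near the mRNA exit of the small subunit, was the gene in which the combination stood out. Its signal was 7.92, 8.29 and 8.65 in DR, 7.55, 7.96 and 8.95 in Rapa, 8.04, 8.77 and 8.97 in Rapa+DR and 7.33, 8.01 and 8.24 in AL. Most Rapa+DR mice lay above all AL mice, and 2 Rapa mice, both in the set of 14 arrays, were as high. The change was 0.83 ± 0.12 in Rapa+DR (adjusted p = 5.92e-07), 0.37 ± 0.12 in DR (adjusted p = 0.0283) and 0.18 ± 0.12 in Rapa (adjusted p = 0.324). Rapa+DR was also higher than Rapa by 0.64 ± 0.12 (adjusted p = 5.57e-05) and than DR by 0.46 ± 0.12 (adjusted p = 0.0237). The call in DR was lost without AL 3, AL 4 or DR 4, with the array SD as a covariate and at a median difference over 30%. The call against DR was lost without DR 9 or DR 11, within the 32 other arrays and without division by the array SD. It was also lost with the replicate number as a block and without the array least like its group. The calls of Rapa+DR against AL and against Rapa held without any 1 array.

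**Figure D3:**
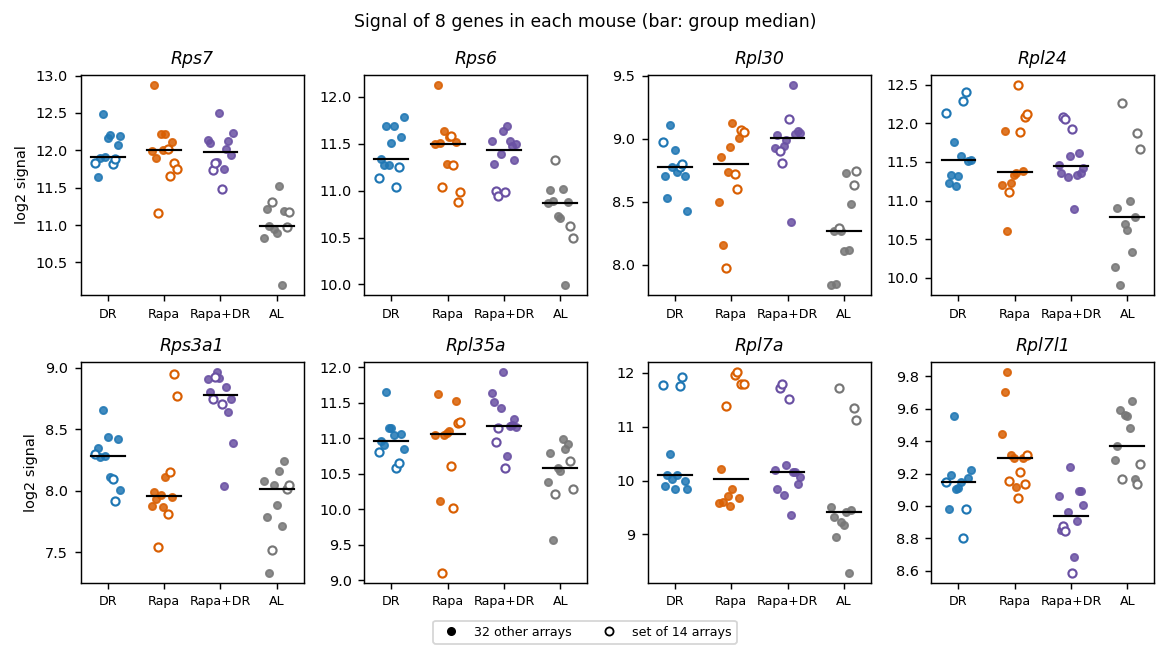
Each point is the log2 signal of 1 mouse for 8 genes, in the order DR, Rapa, Rapa+DR and AL, with a bar at the group median and open points for the set of 14 arrays. In Rps7 all DR mice lie above all AL mice, in Rps3a1 the Rapa+DR median (8.77) is the highest, and in Rpl7a the open points form a second level above 11.

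Rps13, Rps12 and Rps3 had smaller and less stable increases. Rps13 changed by 0.57 ± 0.20 in DR (adjusted p = 0.0353), a call lost without AL 1, AL 3, AL 11, DR 4 or DR 7, and by 0.49 ± 0.20 in Rapa+DR (adjusted p = 0.0426), kept in 34 of the 46 fits that leave out 1 array. Rps12, a protein of the small subunit's head, changed by 0.52 ± 0.17 in DR (adjusted p = 0.0232, lost without DR 4) and by 0.46 ± 0.17 in Rapa (adjusted p = 0.049, kept in 12 of 46 fits). In Rapa+DR it had 0.40 ± 0.17 (adjusted p = 0.0508). Rps3, which lies at the mRNA entry and is also known in DNA repair, changed by 0.37 ± 0.13 in DR (adjusted p = 0.0257), lost without AL 3, AL 8 or DR 4. A dimmer probe of Rps3 was called higher in all 3 groups, by 0.78 ± 0.16 in DR, 0.54 ± 0.15 in Rapa, with 0.89 ± 0.15 in Rapa+DR.

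Among large subunit genes, Rpl30 and Rpl24 were called higher in all 3 groups. Rpl30, at the interface with the small subunit, had 8.43, 8.78 and 9.11 in DR, 7.98, 8.80 and 9.13 in Rapa, 8.34, 9.01 and 9.43 in Rapa+DR and 7.84, 8.27 and 8.74 in AL. The treated medians lay above the highest AL mouse, while several DR and Rapa mice and the lowest Rapa+DR mouse fell among AL mice. The change was 0.46 ± 0.12 in DR (adjusted p = 0.00392), 0.42 ± 0.12 in Rapa (adjusted p = 0.00888) and 0.67 ± 0.12 in Rapa+DR (adjusted p = 1.44e-05). All 3 calls held without any 1 array, while that in Rapa was lost without division by the array SD (adjusted p = 0.0987).

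Rpl24, which forms a bridge between the subunits, had 11.18, 11.52 and 12.41 in DR, 10.60, 11.37 and 12.50 in Rapa, 10.88, 11.44 and 12.08 in Rapa+DR and 9.90, 10.79 and 12.26 in AL. AL mice spanned more than 2 units and overlapped with all groups, and the 3 highest AL mice were those in the set of 14 arrays. It changed by 0.73 ± 0.22 in DR (adjusted p = 0.0125), 0.63 ± 0.22 in Rapa (adjusted p = 0.0334) and 0.60 ± 0.22 in Rapa+DR (adjusted p = 0.0223). The call in DR held without any 1 array, that in Rapa+DR was lost without AL 1 or AL 3, and that in Rapa was kept in 36 of 46 fits. With the set as a block the standard error in DR fell to 0.14 (adjusted p = 8.14e-05).

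Rpl7a, a large subunit protein, was not called until the set of 14 arrays entered the fit. Its signal was 9.84, 10.10 and 11.93 in DR, 9.53, 10.03 and 12.02 in Rapa, 9.37, 10.16 and 11.80 in Rapa+DR and 8.29, 9.41 and 11.72 in AL. Within each group the mice fell at the 2 levels described above. The change was 0.75 ± 0.40 in DR (adjusted p = 0.193), 0.82 ± 0.39 in Rapa (adjusted p = 0.153) and 0.62 ± 0.39 in Rapa+DR (adjusted p = 0.206). With the set as a block it was 0.75 ± 0.12 (adjusted p = 4.23e-06), 0.54 ± 0.12 (adjusted p = 0.000574) and 0.67 ± 0.12 (adjusted p = 7.47e-06), and Rpl7a was called higher in each.

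In all, 3 large subunit genes were called higher in Rapa+DR and in neither DR nor Rapa, without being shown to differ from DR. Rpl35a, mutated in some families with Diamond-Blackfan anemia in humans, had 10.58, 10.97 and 11.66 in DR, 9.11, 11.06 and 11.62 in Rapa, 10.58, 11.18 and 11.94 in Rapa+DR and 9.58, 10.58 and 10.99 in AL. All Rapa+DR mice lay above the AL median, and the change was 0.70 ± 0.20 (adjusted p = 0.00408), against 0.45 ± 0.20 in DR (adjusted p = 0.101) and 0.28 ± 0.20 in Rapa (adjusted p = 0.359). Rpl36a, near the exit site for tRNA, was higher in Rapa+DR by 0.47 ± 0.15 than in AL (adjusted p = 0.0112) and by 0.52 ± 0.15 than in Rapa (adjusted p = 0.00719). Rpl12, at the base of the stalk, changed by 0.49 ± 0.19 (adjusted p = 0.0402), kept in 35 of 46 fits. In DR, Rpl12 had 0.47 ± 0.20 (adjusted p = 0.0844). With the set of 14 arrays as a block Rpl12 was called higher in DR (adjusted p = 0.0397). Within the 32 other arrays Rpl35a was called higher in DR (0.52, adjusted p = 0.0463).

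Rpl22, which binds small viral and cellular RNAs beside its place in the ribosome, was higher by 0.26 ± 0.09 in DR (adjusted p = 0.0215, lost without AL 8 or DR 8, with the array SD as a covariate and under quantile normalization with or without normexp) and by 0.28 ± 0.08 in Rapa (adjusted p = 0.0168, not called within the 32 other arrays or under quantile normalization). Its paralog Rpl22l1 changed by 0.10 in DR, 0.05 in Rapa, with 0.15 in Rapa+DR, the last with an adjusted p of 0.00147 and a difference of medians under 15%. The Rpl22l1 probe was above background on 4 of the 46 arrays (1 DR, 1 Rapa, 2 Rapa+DR and 0 AL). It was tested through treated mice alone, so these values near background do not establish a change. Rpl27 was called in DR (0.49 ± 0.18, adjusted p = 0.0478), a call kept in 20 of 46 fits. Of the other paralogs, Rpl36al had 0.30, 0.41 and 0.36 in DR, Rapa and Rapa+DR beside Rpl36a, and Rps27l, a target of p53, had 0.10, 0.15 and -0.08 beside Rps27, none of them called. With the set of 14 arrays as a block Rpl36al was called higher in Rapa (0.531, adjusted p = 0.00393) and Rapa+DR (0.342, adjusted p = 0.0403). Within the 32 other arrays Rpl36al was called higher in DR, Rapa and Rapa+DR (0.384, 0.866 and 0.515). Paralogs of such close sequence can share signal on an array.

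Among the 59 genes, 2 were called lower in a treated group. Rpl28, a large subunit protein that budding yeast lacks, had 12.18, 12.54 and 13.29 in DR, 10.89, 12.42 and 12.97 in Rapa, 12.01, 12.45 and 12.64 in Rapa+DR and 11.45, 12.89 and 13.25 in AL. The lowest AL mouse lay within the range of Rapa mice, and the groups overlapped widely. Rpl28 fell by 0.50 on the log2 scale in Rapa (SE 0.17, adjusted p = 0.0327). This call was lost without AL 2, AL 4, AL 6, AL 8, AL 9, AL 10, Rapa 3, Rapa 4 or Rapa 9, and within the 32 other arrays (-0.39, adjusted p = 0.166).

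Rpl7l1, a paralog of Rpl7 that acts in assembly of the large subunit and is not part of the mature ribosome, had 8.80, 9.15 and 9.55 in DR, 9.05, 9.30 and 9.83 in Rapa, 8.59, 8.94 and 9.24 in Rapa+DR and 9.14, 9.37 and 9.65 in AL. Every Rapa+DR mouse lay below the AL median. It fell by 0.45 in Rapa+DR (SE 0.08, adjusted p = 2.34e-05) and by 0.25 in DR (SE 0.08, adjusted p = 0.0231, lost without AL 3, AL 5, AL 6, AL 7, AL 8 or DR 8), against -0.06 in Rapa (adjusted p = 0.663). Rapa+DR was also lower than Rapa, by 0.39 (SE 0.08, adjusted p = 0.000266). Both calls in Rapa+DR held without any 1 array, and neither was called without division by the array SD. That against Rapa was also lost at a median difference over 30% and with the mean of all probes. The call in DR was lost under 5 of 17 settings, these 3 among them (adjusted p up to 0.473). A second, dim probe of Rpl7l1 was not called.

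Between the treated groups few of these genes differed. Rapa+DR against DR had 1 gene called higher (Rps3a1) and 0 lower, against 1.84% higher and 0.414% lower of all tested genes, and the median was -0.08. Rapa+DR against Rapa had 5 called higher (8.47%) and 1 lower, against 11.6% and 6.77% of all genes. Besides Rps3a1, Rpl36a and Rpl7l1 these were Rpl37a (0.55 ± 0.19, adjusted p = 0.0246), Rpl39, which lines the exit tunnel (0.40 ± 0.15, adjusted p = 0.0419), and Rps16 (0.36 ± 0.14, adjusted p = 0.0473). Without Rapa 4 or Rapa 9 the count higher was 2. DR against Rapa had 4 called higher (6.78%) and 0 lower, against 7.12% and 4.92% of all genes. They were Rps15 (0.59 ± 0.19, adjusted p = 0.0267), Rpl37a (0.55 ± 0.19, adjusted p = 0.0448), Rps16 (0.45 ± 0.14, adjusted p = 0.0261) and, on a dim probe, Rplp0 (0.19 ± 0.06, adjusted p = 0.0179). Without Rapa 3 or Rapa 4 that count was 1. With the set of 14 arrays as a block the counts higher and lower were 1 and 0, 4 and 3, and 5 and 0 in these 3 comparisons (2.68%, 13.1% and 8.95% of all genes higher, 0.72%, 7.53% and 5.67% lower). Within the 32 other arrays they were 0 and 0, 2 and 2, and 1 and 1 (0.424%, 11.2% and 6.69% higher, 0.0296%, 5.75% and 3.92% lower). Without division by the array SD they were 0 and 0, 39 and 0, and 31 and 0 (1.57%, 19.4% and 11.6% higher, 0.0296%, 4.96% and 2.87% lower).

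Of the stalk proteins, which recruit translation factors to the large subunit, Rplp0 and Rplp1 were not called against AL, and Rplp2 was not tested. The Rplp0 probe was dim (mean log2 signal 7.08), and a second probe of that gene was above background on 0 arrays. Rplp0 had 6.97, 7.17 and 7.36 in DR, 6.82, 6.95 and 7.16 in Rapa, 6.88, 7.14 and 7.37 in Rapa+DR and 6.80, 7.07 and 7.34 in AL, and changed by 0.13 ± 0.06 in DR (adjusted p = 0.0944). Rplp1 changed by 0.04 ± 0.18 in DR, 0.03 ± 0.18 in Rapa, with -0.27 ± 0.18 in Rapa+DR. The ranges of all groups overlapped for both genes. In all, 42 of the 59 genes were called in none of the 3 comparisons with AL. Their probes included those of highest signal (Rpl41, Rplp1, Rps2, Rps20 and Rpl38) and of lowest signal (Rpsa, Rpl22l1, Rps23rg1, Rps15a and Rpl21). Of 10 genes with a mean log2 signal of 13 and over 0 were called in any group, and of 7 under 8 also 0. In the range of 10 to 12, 8 of 22 genes were called higher in DR, 3 in Rapa, with 9 in Rapa+DR. Shares over all genes of the same signal range were not counted. These counts therefore do not show whether the pattern is particular to ribosomal protein genes.

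Other probes of a gene did not always give the call of the brightest. For Rpl23 the brightest probe was not called (-0.17 in DR), while a dimmer one was higher in DR (0.39, adjusted p = 0.00418) and in Rapa+DR (0.37, adjusted p = 0.00309). Rpl29 had a second probe higher in DR (0.44, adjusted p = 0.00325), Rpl31 in DR (0.30, adjusted p = 0.0325) and Rapa+DR (0.41, adjusted p = 0.0011), and Rps9 in DR (0.48, adjusted p = 0.0254) and Rapa+DR (0.75, adjusted p = 0.000145). In these 4 genes the brightest probe was not called in any group. With the mean of all probes of a gene 14, 7 and 15 of the 59 genes were called higher in DR, Rapa and Rapa+DR, against 10.4%, 7.87% and 16.8% of all genes.

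Mice within a group differed in most of these genes at once, and most so in Rapa. The median SD of a gene within a group was 0.27 in DR, 0.54 in Rapa, 0.31 in Rapa+DR and 0.38 in AL. The mean over the 59 genes in each mouse, as a difference from the mean of all 46 mice, was 0.11 ± 0.17 in DR, -0.03 ± 0.37 in Rapa, 0.03 ± 0.17 in Rapa+DR and -0.11 ± 0.25 in AL (SD over 11, 12, 12 and 11 mice). The lowest mice were Rapa 4 (-0.90) and AL 3 (-0.72), and the highest Rapa 2 (0.62) and DR 4 (0.43). Rapa 4 and AL 3 were also the arrays that correlated least with their own groups over tested genes outside the list. Without the array least like its own group in each group, 11, 8 and 12 genes were called higher and 1, 1 and 3 lower in DR, Rapa and Rapa+DR, with medians of 0.14, 0.08 and 0.14. Of all genes 12.2%, 8.61% and 16.6% were higher and 7.83%, 7.76% and 12.5% lower in that setting.

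**Figure D4:**
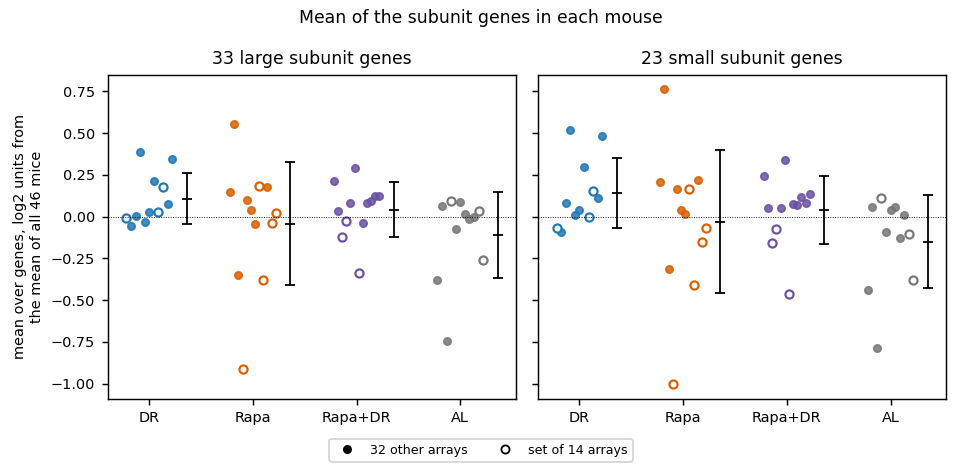
Each point is 1 mouse, as the mean over 33 large subunit genes (left) or 23 small subunit genes (right) in log2 units from the mean of all 46 mice, with the group mean and SD beside it and open points for the set of 14 arrays. Rapa mice spread widest (SD 0.37 and 0.43), and the group ranges overlap in both panels.

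Genes of related function gave mixed directions. Of 15 tested genes for translation elongation or for other mRNAs with a TOP motif, 4 were called higher and 1 lower in DR, 5 and 1 in Rapa, and 8 and 1 in Rapa+DR, with medians of 0.21, 0.07 and 0.40. These are shares of 26.7%, 33.3% and 53.3% higher, against 10.7%, 8.26% and 17.1% of all tested genes, and 6.67% lower in each, against 7.41%, 6.4% and 11.3%. Eef1b2, a subunit of the factor that recharges eEF1A, was higher by 0.68 in DR, 0.61 in Rapa, with 0.85 in Rapa+DR (adjusted p between 7.51e-07 and 5e-04). Hnrnpa1, an RNA-binding protein of splicing, was higher by 0.51, 0.38 and 0.90 in the same order (adjusted p between 9.03e-15 and 3.6e-05). Eef1g, another elongation factor subunit, fell by 0.56 in Rapa+DR (adjusted p = 0.000454). The 1 gene called lower in DR and in Rapa was Nacc1 (-0.18 and -0.21), a transcriptional regulator and not an elongation factor. Its mRNA was not checked for a TOP motif, so these 2 lower calls do not bear on elongation factors or TOP mRNAs. Of 38 tested ribosome biogenesis factors 10 were called higher and 2 lower in DR, 7 and 2 in Rapa, and 11 and 3 in Rapa+DR, which are 26.3%, 18.4% and 28.9% higher and 5.26%, 5.26% and 7.89% lower. Npm1, a nucleolar chaperone of ribosome assembly that also has a TOP mRNA, was higher by 0.68, 0.72 and 0.85, and Brix1, of large subunit assembly, by 0.56, 0.63 and 0.60. Pes1, also of large subunit assembly, fell by 0.43 in DR and by 0.44 in Rapa+DR, and was at -0.04 in Rapa (adjusted p = 0.793).

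RNA polymerase I transcribes the large rRNA precursor. Of its 10 tested subunits and factors 1 was called higher and 1 lower in DR, 0 and 0 in Rapa, and 2 higher and 1 lower in Rapa+DR, shares near those of all genes in DR and Rapa+DR (10.7% and 17.1% higher, 7.41% and 11.3% lower). Polr1d was higher in DR (0.39, adjusted p = 0.0217), Polr1c in Rapa+DR (0.32, adjusted p = 0.00377), and Polr1e lower in DR (-0.26, adjusted p = 0.00228) and Rapa+DR (-0.21, adjusted p = 0.0061). Of 4 tested S6 kinase genes Rps6kl1 was called, lower in Rapa+DR (-0.19, adjusted p = 5.7e-05). Fau, which encodes a small subunit protein fused to a ubiquitin-like protein, had 0.34 in DR, -0.19 in Rapa, with 0.05 in Rapa+DR and was not called. Of 70 tested mitochondrial ribosomal protein genes, which serve the separate ribosome of mitochondria, 10 were called higher and 3 lower in DR, 7 and 6 in Rapa, and 17 and 10 in Rapa+DR. Their shares of 14.3%, 10% and 24.3% higher and 4.29%, 8.57% and 14.3% lower stand beside 10.7%, 8.26% and 17.1% higher and 7.41%, 6.4% and 11.3% lower of all genes.

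The tissue matched its label, with 7 of 8 tested hepatocyte markers above background on all arrays. Of the tested lymphocyte markers 0 of 7 and of the bile duct markers 0 of 2 were above background on all arrays. Of 8 tested Kupffer cell and macrophage markers, 5 of them on all arrays, DR had 2 called lower, Rapa 4 and Rapa+DR 4, 0 were called higher, and 3 of 8 had a positive change in Rapa+DR. Clec4f, a Kupffer cell lectin, was lower in all 3 treated groups (-0.54, -0.61 and -0.70), while Adgre1, the macrophage marker F4/80, was not called (-0.10, -0.03 and 0.08). Their summed signal (log2) had a median of 11.13 in DR (range 10.26 to 11.42), 11.01 in Rapa (10.69 to 11.43), 11.00 in Rapa+DR (10.38 to 11.32) and 11.35 in AL (11.07 to 11.75). Of 8 tested endothelial markers 0 were called in DR, 3 lower in Rapa, and 1 higher and 1 lower in Rapa+DR, with summed medians of 11.97 in DR, 11.75 in Rapa, 11.81 in Rapa+DR and 12.00 in AL. Of 4 tested erythroid markers Alas2, the erythroid enzyme of heme synthesis, was called lower in DR (-1.04) and Rapa+DR (-1.15, adjusted p = 2.72e-09), and the summed medians were 13.60 in DR, 13.43 in Rapa, 13.38 in Rapa+DR and 13.81 in AL. Of 9 tested stellate cell and fibroblast markers 0 were called against AL. The part of such cells in the levels of the ribosomal protein genes was not tested.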

How the data were processed

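Liver RNA of 46 mice was hybridised to 1 Illumina array each, read in Genome Studio, log2 transformed and z-normalized by the authors. The deposited values are these z-scores, a score with no unit. Since signals before the log were whole multiples of 0.1, the steps between dim values gave back each array's SD and mean. The scores were then multiplied by 1 common SD (1.3368) and added to 1 common mean (7.0464) of the log2 signals. Of a second table, 92 columns of per-sample values that could not be tied to a labelled sample were not used. A probe was above background past the upper 0.02 tail of a normal distribution set by the mode of each array's log2 signals and their spread below it. A linear model over 4 groups with 42 residual degrees of freedom was fitted to all tested probes (limma 3.58.1 in R 4.3.3, lmFit and eBayes), and p-values were adjusted by Benjamini-Hochberg. Calls required an adjusted p below 0.05 and medians more than 15% apart, and for the interaction the adjusted p alone. A gene was represented by its tested probe of highest mean. The script was tested on simulated data.

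The genes named were, in each comparison, the 8 called genes of largest change in each direction, stalk proteins, Rps6, the 5 genes of highest and 5 of lowest signal, paralogs, genes whose probes differ in a call, genes called in the interaction, and up to 4 called genes of each other list. The genes and lists were chosen with earlier results of these data known. Start regions were searched with Python 3.11.15. Alternatives covered scaling, filters, covariates, weights, thresholds, probes and arrays left out.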

Additional observations from a re-analysis of the deposited data

Results flagged for a closer look

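The effect of rapamycin on Rps7 and Rps6 differed between DR mice and AL mice by the test of the difference itself. For Rps7 the difference of Rapa+DR from DR less the difference of Rapa from AL was -0.992 on the log2 scale (SE 0.185, limma adjusted p = 0.00222), and for Rps6 it was -0.689 (SE 0.174, adjusted p = 0.0245). Both differences were called without any 1 of the 46 arrays, with adjusted p between 0.000914 and 0.00457 for Rps7 and between 0.0123 and 0.0393 for Rps6. They were not called where arrays were centred and not divided by their SD, at -0.78 (adjusted p = 0.137) and -0.52 (adjusted p = 0.103).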

How the results depend on the processing

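Counts are of the 59 genes, with the percent of all genes in that setting in parentheses. The cause of each shift was not tested. With quantile normalization Rapa+DR had 21 above AL (13.9%), and 9 were higher in Rapa+DR and 10 in DR than in Rapa (9.53% and 6.91%). There 4 interactions were negative (2.56%). Without division by the array SD 26, 2 and 33 were higher in DR, Rapa and Rapa+DR than in AL (12.4%, 5.18% and 21.5%). In the same groups 0, 0 and 0 were lower (3.53%, 3.52% and 6.94%), with medians of 0.46 in DR and 0.49 in Rapa+DR. In that setting 0 were higher in Rapa+DR than in DR (1.57%). Against Rapa 39 were higher and 0 lower in Rapa+DR (19.4% and 4.96%, median 0.51), and 31 higher in DR (11.6%, median 0.48). There 0 interactions were negative (0.0493%). With no filter 0 were lower in Rapa (3.21%) and 3 higher in Rapa+DR than in Rapa (6.77%). With genes above background on every array 2 were lower in Rapa+DR (20.5%). Array weights gave 5 lower in Rapa+DR than in AL (13%) and 3 than in Rapa (7.39%). They also gave 1 lower in DR than in Rapa (5.57%), and 1 positive interaction (5.8%). The array SD as a covariate gave 0 lower in DR (8.83%) and 4 negative interactions (3.37%). The background level as a covariate gave 4 lower in Rapa+DR than in AL (9.38%) and 3 than in Rapa (6.89%). It also gave 0 higher in DR than in Rapa (4.59%), and 1 positive interaction (2.62%). The adjusted p alone gave 2 lower in DR (9.92%), 2 in Rapa+DR (18.8%) and 8 higher in Rapa+DR than in Rapa (17.1%). A median difference over 30% gave 6 higher and 0 lower in DR (6.28% and 4.14%). Against Rapa it gave 3 higher and 0 lower in Rapa+DR (5.76% and 3.65%), and 1 higher in DR (3.49%). The mean of all probes gave 0 lower in DR (6.35%) and 0 in Rapa+DR than in Rapa (6.07%).

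The next alternatives were added after seeing the data, and percents of all genes are again in parentheses. With normexp and quantile normalization 22 were higher in Rapa+DR (15.1%), and 10 in Rapa+DR and 10 in DR than in Rapa (10.9% and 7.35%). There 4 interactions were negative (2.59%). Without the array of lowest SD in each group 2 were higher in DR than in Rapa (7.33%). Without the array least like its group 3 were lower in Rapa+DR (12.5%), 0 higher than in DR (0.838%), and 2 higher in DR than in Rapa (7.96%). With the set of 14 arrays as a block 3 were lower in Rapa+DR than in Rapa (7.53%), and 1 interaction was positive and 6 negative (4.48% and 2.9%). Within the 32 other arrays 12 were higher and 0 lower in Rapa (5.7% and 7.26%), and 20 and 2 in Rapa+DR (15.5% and 11.2%). There 0 were higher in Rapa+DR than in DR (0.424%), and 2 higher and 2 lower than in Rapa (11.2% and 5.75%). In DR 1 was higher and 1 lower than in Rapa (6.69% and 3.92%), and 5 interactions were negative (1.37%). Within the 14 arrays 0 were higher and 0 lower in DR (1.99% and 1.19%) and in Rapa (3.32% and 1.96%, median -0.149). There 1 was higher in Rapa+DR (11.7%, median -0.106), and 0 in Rapa+DR than in DR or Rapa (0.0592% and 5.17%). In DR 0 were higher than in Rapa (3.36%), and 0 interactions were negative (0%), while Rps12 in Rapa turned to -0.01.

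Without each of the 46 arrays in turn, 7 to 15 were higher and 0 to 1 lower in DR (median 0.144 to 0.252), 4 to 9 and 0 to 2 in Rapa (0.009 to 0.119), 8 to 13 and 1 to 3 in Rapa+DR (0.089 to 0.16), 0 to 1 and 0 to 0 in Rapa+DR than in DR (-0.112 to -0.05), 2 to 7 and 1 to 2 in Rapa+DR than in Rapa (-0.028 to 0.101), 1 to 5 and 0 to 0 in DR than in Rapa (0.057 to 0.173), and 0 to 1 interactions were positive and 2 to 2 negative (-0.213 to -0.068). With all 46 arrays 10.7%, 8.26% and 17.1% of all genes were higher in DR, Rapa and Rapa+DR than in AL, and 7.41%, 6.4% and 11.3% lower. Between treated groups, in the same order, 1.84%, 11.6% and 7.12% were higher and 0.414%, 6.77% and 4.92% lower. Interactions were positive in 1.24% and negative in 1.26% of all genes. The labels give replicate numbers and no pairing of the mice. Of 67 same-numbered pairs of mice 25 deviated together at a correlation over 0.1 (median 0.04, range -0.6 to 0.66), which does not decide whether the numbers share anything. With the replicate block 11, 4 and 9 were higher in DR, Rapa and Rapa+DR (10.5%, 7.85% and 16.6% of all genes), and 1, 1 and 1 lower (7.19%, 6.09% and 11.1%). In that setting 0 were higher in Rapa+DR than in DR (1.29%).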
